A study of Mus musculus with 4 samples.

Results

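The 9 genes described here belong to the KDM1, KDM3 and KDM4 families, grouped here as H3K9 demethylase genes. The grouping is by family and does not state the main substrate of each product. KDM1B, for example, acts on H3K4. They were taken by symbol from the GENCODE M21 annotation of mm10, and all 9 of 9 were found among 21670 protein-coding genes on chromosomes 1 to 19 and X. The 2 KDM1 genes are Kdm1a and Kdm1b, the 3 KDM3 genes are Kdm3a, Kdm3b and Jmjd1c, and the 4 KDM4 genes are Kdm4a, Kdm4b, Kdm4c and Kdm4d. The study mapped PHF2, another histone demethylase, and the mark H3K9me2 (histone H3 dimethylated at lysine 9) by ChIP-seq in cultured neural stem cells. The cells were wild-type C57BL/6J cells of embryonic stage E12.5, grown in medium with EGF (20 ng/ml) plus FGF (10 ng/ml) on coated dishes, and the same description holds for each of the 4 groups. These were a PHF2 immunoprecipitation, its input, an H3K9me2 immunoprecipitation and its input, with 1 sample each, and the inputs were not analysed here. The labels do not say how many embryos or cultures a sample came from.

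Methyl groups on lysine 9 of histone H3 mark silent chromatin. They are written by methyltransferases such as EHMT1 and EHMT2 and removed by demethylases of different chemistry. KDM1 enzymes are flavin-dependent amine oxidases that remove mono- and dimethyl groups. KDM3 and KDM4 enzymes carry a JmjC domain and use iron and alpha-ketoglutarate, the KDM3 enzymes acting on mono- and dimethylated H3K9 and the KDM4 enzymes mainly on di- and trimethylated H3K9. PHF2 belongs to a further JmjC family, KDM7, acts on H3K9me2 and binds H3K4me3, a mark of active promoters, through its PHD finger. KDM1A, also called LSD1, works with CoREST and histone deacetylases and is known for keeping neural progenitors proliferating.

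The promoter sequences that carry the main contrasts come first. They are read from the RefSeq copy of GRCm38 (mm10), and are the bases before a coding start on the strand of the gene, shortened or moved upstream where they would run into an annotated exon, and capitals mark CpG dinucleotides. The first pair belongs to Kdm4c, whose 5'-most start had no PHF2 peak and whose next start, 9439 bp downstream, had one. Kdm3a is shown as a CpG-rich promoter without a peak and Kdm1a as one with a peak. The second and the third start of Jmjd1c had PHF2 peaks of almost equal score in DNA of very different CpG content. Kdm4d was the other gene without a peak.
Kdm4c, first start, no PHF2 peak (chr4:74242247-74242496, + strand): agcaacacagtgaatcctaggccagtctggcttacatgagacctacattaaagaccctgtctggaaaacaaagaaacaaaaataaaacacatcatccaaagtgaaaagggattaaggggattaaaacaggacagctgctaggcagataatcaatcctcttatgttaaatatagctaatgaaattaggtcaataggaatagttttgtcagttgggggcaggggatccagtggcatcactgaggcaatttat
Kdm4c, second start, PHF2 peak (chr4:74251715-74251878, + strand): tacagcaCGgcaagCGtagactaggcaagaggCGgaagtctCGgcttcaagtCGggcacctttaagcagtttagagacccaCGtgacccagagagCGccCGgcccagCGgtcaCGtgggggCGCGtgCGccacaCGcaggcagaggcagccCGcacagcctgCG
Kdm3a, no PHF2 peak (chr6:71632991-71633240, - strand): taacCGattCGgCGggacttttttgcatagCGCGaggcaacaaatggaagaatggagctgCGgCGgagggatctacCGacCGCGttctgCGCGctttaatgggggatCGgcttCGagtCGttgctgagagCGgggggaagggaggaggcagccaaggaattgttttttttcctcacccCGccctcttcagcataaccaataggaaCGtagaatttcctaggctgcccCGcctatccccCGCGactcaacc
Kdm1a, PHF2 peak (chr4:136602724-136602973, - strand): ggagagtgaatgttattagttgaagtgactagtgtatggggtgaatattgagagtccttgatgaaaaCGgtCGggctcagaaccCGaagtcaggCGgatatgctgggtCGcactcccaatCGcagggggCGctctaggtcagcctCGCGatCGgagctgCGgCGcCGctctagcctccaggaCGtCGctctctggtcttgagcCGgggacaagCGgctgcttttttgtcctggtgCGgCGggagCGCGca
Jmjd1c, second start, PHF2 peak (chr10:67126838-67127087, + strand): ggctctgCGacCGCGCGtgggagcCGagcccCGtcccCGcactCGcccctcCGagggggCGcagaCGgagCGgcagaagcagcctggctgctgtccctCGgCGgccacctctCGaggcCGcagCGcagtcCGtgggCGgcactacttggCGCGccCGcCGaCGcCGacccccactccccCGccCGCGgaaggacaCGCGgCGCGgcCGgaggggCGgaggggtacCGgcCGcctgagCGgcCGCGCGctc
Jmjd1c, the third start, PHF2 peak (chr10:67185498-67185747, + strand): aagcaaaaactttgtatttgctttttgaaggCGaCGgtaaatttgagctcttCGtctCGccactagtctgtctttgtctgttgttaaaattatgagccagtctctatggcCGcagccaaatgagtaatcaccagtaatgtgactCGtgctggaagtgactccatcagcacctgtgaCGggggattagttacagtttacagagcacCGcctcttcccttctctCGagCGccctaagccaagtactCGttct
Kdm4d, no PHF2 peak (chr9:14500483-14500616, - strand): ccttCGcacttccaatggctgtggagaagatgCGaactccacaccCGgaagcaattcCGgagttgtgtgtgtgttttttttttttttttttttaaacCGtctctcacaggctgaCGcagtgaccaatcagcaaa
The stretch at the first Kdm4c start holds 0 CpG dinucleotides in 250 bases, and the shorter one at the second start holds 16 in 164 bases. The Kdm3a and Kdm1a stretches hold 21 each. At Jmjd1c the second start has 40 and the third has 11 in 250 bases. Those at the second starts end 57 bases (Kdm4c) and 170 bases (Jmjd1c) before the start. The Kdm4d stretch stops at 134 bases, where the first exon of a neighbour begins, and holds 6.

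PHF2 lay at the promoters of 7 of the 9 genes (77.8%), against 29.1% of all protein-coding genes. A promoter was the window of 1 kb on either side of each start of a coding transcript, and a peak counted when it overlapped a window by 1 bp or more. Kdm1a, Kdm1b, Kdm3b, Jmjd1c, Kdm4a, Kdm4b and Kdm4c had a peak. Kdm3a and Kdm4d had none. The share of all genes with a peak rose with the CpG content of the promoter, as the plot by decile shows, so each gene is set below beside the genes of its own decile. For the deciles the CpG observed/expected ratio was taken over all windows of a gene together. There was 1 sample per group, so no spread between cultures stands behind any of these calls, and no test was made.

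**Figure D1:**
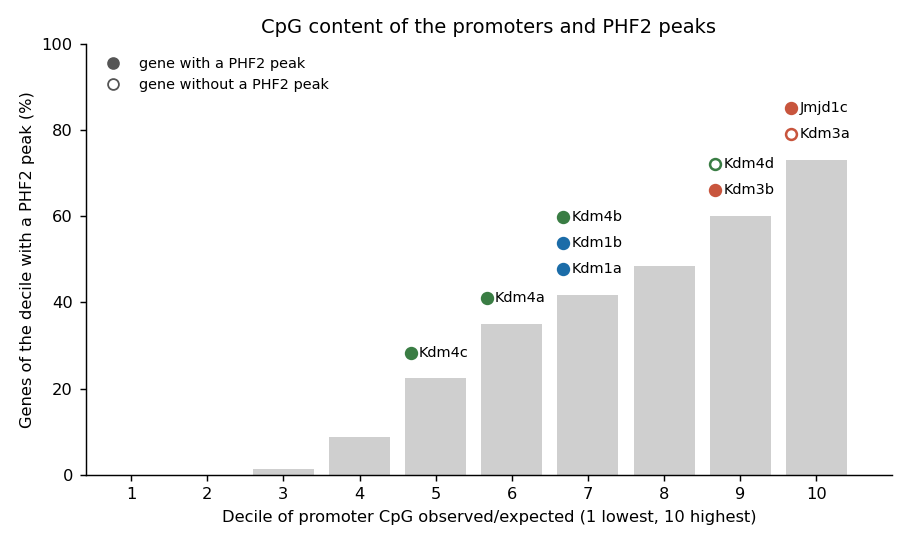
Share of protein-coding genes with a PHF2 peak at a promoter (y axis, %) in each decile of promoter CpG observed/expected (x axis, 1 lowest to 10 highest). Circles place the 9 genes in their deciles, filled with and open without a PHF2 peak, coloured blue for KDM1, red for KDM3 and green for KDM4, and their heights carry no value. The share goes from 0% in decile 1 to 73.1% in decile 10, and Kdm3a and Kdm4d are open in deciles where most genes have a peak.

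Within the list of 5992 peaks, those of the demethylase genes were spread widely in rank. The lowest scored higher than 11.9% of the list (Kdm4b) and the highest than 89.5% (Jmjd1c), and none lay between 40.9% (Kdm1a) and 71.1% (Kdm4c). The authors' score, 1 value per peak on a scale that is not given in the sources used here, ran from 100.02 to 3226 with a median of 229. The median over the 9 peaks at these genes was 343, but Jmjd1c supplied 3 of the 9. Taking the best peak of each of the 7 genes, the median was 198, against 232 over the best peaks of all genes with a peak. Jmjd1c, Kdm4a and Kdm4c, 3 of the 7 genes, had peaks above the median score of the list, as did 50.9% of all genes with a peak, while the other 4 lay below it. None of the 9 peaks was among the highest-scoring 10%, where 9.77% of all genes with a peak had one.

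In the KDM1 family both genes had a single peak of low to middle score. Kdm1a lies on chromosome 4 (136550540 to 136602723, minus strand). The Kdm1a peak (chromosome 4, 136601816 to 136602956) had a score of 198, higher than 40.9% of the list, and a length of 1141 bp. It spanned 648 bp before and 492 bp after the nearest coding start and covered 3 coding starts, of which the nearest one, at 136602308, comes from a transcript tagged as incomplete at its 5' end. Kdm1b lies on chromosome 13 (47043499 to 47085279, plus strand). Kdm1b encodes the second enzyme of the family, also called LSD2, which acts on H3K4 and is known for its role in oocytes. Its peak (chromosome 13, 47043056 to 47044201) had a score of 163, higher than 28.7% of the list, and a length of 1146 bp. The peak also covered a start of Tpmt, the thiopurine methyltransferase gene on the other strand, so it cannot be assigned to either gene. The 2 KDM1 peaks were alike in length and lay on both sides of their starts. Genes in the CpG decile of Kdm1a and Kdm1b, decile 7, had a peak in 41.8% of cases. That decile is lowered by later starts of transcripts tagged as incomplete at the 5' end. With those starts left out for all genes, a choice made after seeing the data, Kdm1a fell in decile 10 (75.2% with a peak) and Kdm1b in decile 8 (49.9%).

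The KDM3 family held the highest-scoring peaks of the 9 genes, at Jmjd1c, a low-scoring one at Kdm3b and none at Kdm3a. Jmjd1c, which encodes a large JmjC protein first described as a thyroid receptor interactor, had 3 PHF2 peaks at 3 separate coding starts. Of all protein-coding genes, 8 (0.0369%) had 3 or more peaks and 1.06% had 2 or more, but most genes have too few windows to hold as many at separate starts. Among the 1664 genes with 3 or more separate windows, 0.421% had 3 or more peaks, and 0.18% had a peak in 3 or more windows. The gene spans 67096125 to 67256326 on the plus strand of chromosome 10. The first Jmjd1c peak (chromosome 10, 67095636 to 67097799) had a score of 600.3 and a length of 2164 bp, the second (67126252 to 67128159) a score of 443 and a length of 1908 bp, and the third (67185318 to 67187815) a score of 434 and a length of 2498 bp. All 3 ranked in the upper part of the list, higher than 89.5%, 81.5% and 80.6% of it in score and longer than 90.5%, 85.0% and 94.5% of it. The second and the third starts lie 30766 and 89258 bp downstream of the first.

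The DNA under the 3 Jmjd1c peaks differed in base composition. The DNA under the first peak had a GC content of 59.6% and a CpG observed/expected of 0.942, and that under the second had 57.8% and 1.07. Under the third it had only 38.0% and 0.436, where the median over all PHF2 peaks was 59.6% and 0.775. The third peak was also the one most shifted from its start, with its centre 816 bp downstream, where the first lay 225 bp downstream and the second 53 bp upstream. The first peak also covered a start of Reep3, the gene of an endoplasmic reticulum shaping protein on the other strand, 354 bp from the Jmjd1c start. It lay over the starts of both genes and cannot be assigned to either, while the second and the third peak covered starts of no other annotated gene.

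Kdm3b, the demethylase gene of the family on chromosome 18, had 1 peak (34776935 to 34777886) with a score of 141, at rank 4853 of 5992. At 952 bp it exceeded only 9.63% of the peaks in length and lay almost wholly downstream, with 131 bp before and 820 bp after the start. In its decile, 60.1% of genes had a peak. The Kdm3b gene spans 34777047 to 34838660 on the plus strand. Kdm3a encodes a demethylase that is induced by hypoxia and acts in spermatogenesis and metabolism. Kdm3a spans 71588972 to 71632990 on the minus strand of chromosome 6. It had no peak, and the nearest one lay 74551 bp from its 5'-most start. Its promoter was not poor in CpG: its observed/expected ratio of 0.843 exceeded that of 97.0% of all genes, and 73.1% of the genes in its decile had a peak. Jmjd1c, in the same decile, had the highest score of the 9 genes, at the peak that also covers the Reep3 start.

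In the KDM4 family, Kdm4a, Kdm4b and Kdm4c had a peak and Kdm4d did not. Kdm4a and Kdm4c encode demethylases of H3K9 and H3K36 with PHD and Tudor domains. Kdm4a spans 118136957 to 118180043 on the minus strand of chromosome 4. The Kdm4a peak (chromosome 4, 118178805 to 118180711) had a score of 364, higher than 73.8% of the list, and a length of 1907 bp. It covered all 4 coding starts of the gene. Its DNA held few CpG for a PHF2 peak, with an observed/expected of 0.494 and a GC content of 51.1%. In the decile of Kdm4a, 35.0% of genes had a peak.

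Kdm4b, a relative of the same domain structure that is induced by hypoxia, had the shortest peak of the whole list. It was 459 bp long (chromosome 17, 56326030 to 56326488), the only peak of that length, and the next shortest peak at any gene or site had 666 bp. The gene spans 56326062 to 56402870 on the plus strand. The peak had a score of 125, higher than 11.9% of the list. It began 61 bp before the start and ended 397 bp after it, and it was dense in CpG, with 12.6 CpG per 100 bp. The plot of score against length shows this peak apart from the others. In the decile of Kdm4b 41.8% of genes had a peak, and with incomplete transcripts left out it fell in decile 10 (75.2%).

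The Kdm4c peak lay at an internal start. Kdm4c spans 74242497 to 74405860 on the plus strand. The gene has 3 coding starts, at positions 74242497, 74251936 and 74262809 of chromosome 4, and only the second was under a peak (74251242 to 74252907, score 343, length 1666 bp, higher than 71.1% of the list). The first start lay 8745 bp and the third 9902 bp from that peak. Among 2230 genes with a PHF2 peak and 2 or more separate windows, 15.2% had a peak at a later start and none at the 5'-most one. The second start had a CpG observed/expected of 0.749 within 1 kb, against 0.152 at the first and 0.0854 at the third. The peak also covered the start of A230083N12Rik, an antisense RNA gene 222 bp away. In the decile of Kdm4c, 22.4% of genes had a peak. That decile rests on the windows of all 3 starts together. The ratio of the second window alone, picked because it holds the peak, lies in the range of decile 10. In that decile 73.1% of genes had a peak.

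Kdm4d encodes a short KDM4 enzyme without the PHD and Tudor domains, known from testis. The gene spans 14462548 to 14500482 on the minus strand of chromosome 9. It had no peak, and the nearest lay 112910 bp from its 5'-most start. Its promoter had a CpG observed/expected of 0.687, above 85.5% of all genes, and 60.1% of genes in its decile had a peak. Cwc15, the gene of a splicing factor that starts 135 bp away on the other strand, also had no peak. It is named here after its values were seen.

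**Figure D2:**
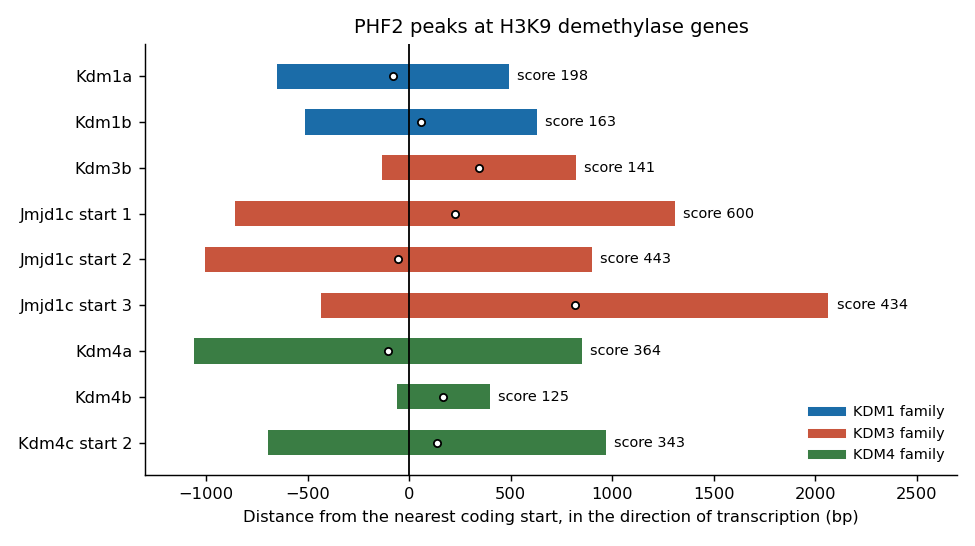
Extent of the 9 PHF2 peaks (bars) relative to the nearest coding start (vertical line) in bp, positive in the direction of transcription, with the peak centre as a white dot and the authors' score beside each bar. Bars are blue for KDM1, red for KDM3 and green for KDM4. The start used for Kdm1a comes from a transcript tagged as incomplete at its 5' end. The Kdm4b peak of 459 bp is the shortest and the third Jmjd1c peak of 2498 bp is the longest and the most shifted downstream.

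**Figure D3:**
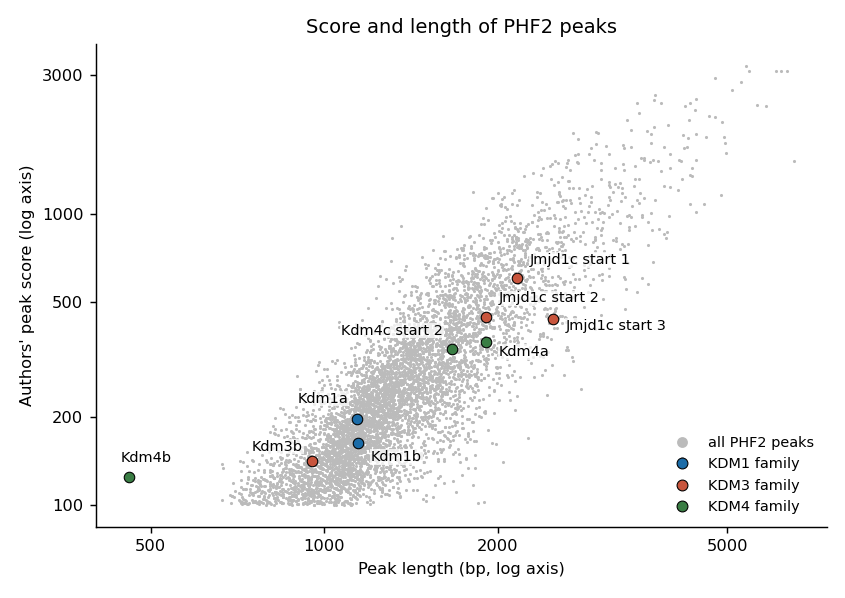
Score given by the authors (y axis, log scale) against length in bp (x axis, log scale) for all 5992 PHF2 peaks (grey), with the 9 peaks at demethylase genes coloured by family. Kdm4b, at 459 bp and a score of 125, lies to the left of all other peaks, and Jmjd1c has the 3 highest scores of the 9.

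Each of the 9 peaks overlapped 1 or more coding starts, and 6 of 9 had their centre downstream of the nearest one. Kdm1a is not among the 6, but its nearest start comes from a transcript tagged as incomplete. Its peak centre lay downstream of the other Kdm1a starts under the peak. Over all promoter peaks, 71.8% were centred downstream, with a median offset of 144 bp. The position of the peaks at these genes was close to that of the list as a whole. In the same 3 measures that describe a peak (log10 score, log10 length and the offset from the start in kb, compared by Euclidean distance), the genes closest to Jmjd1c's best peak among 6302 genes were Prpf38b, Eif3a and Snx9, at distances of 0.0213 to 0.0490. The closest to Kdm4b were Brwd1, Atg2a and Tmem115, at distances of 0.174 to 0.190, all with peaks of at least 667 bp.

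Compared window by window, CpG content went with the peaks in every gene that had windows of both kinds. Of these genes, all but Kdm4c had such windows only through starts of transcripts tagged as incomplete. The coding starts of the 9 genes fall into 17 separate windows, of which 9 had a PHF2 peak, against 20.9% of all 30742 windows. CpG observed/expected ranged from 0.414 to 1.06, with a median of 0.749, in the windows with a peak. In the 8 without a peak it ranged from 0.0854 to 0.843, with a median of 0.238, so the ranges overlapped. Kdm1a, Kdm1b, Kdm4b and Kdm4c had windows of both kinds, and in these 4 of 4 genes the window with the peak had the higher ratio. The same order held in 2080 of 2172 such genes in the annotation (95.8%). At 5 of the 29 coding starts of the 9 genes, all transcripts are tagged in the annotation as incomplete at the 5' end. The one at 136602308 lies in the first Kdm1a window, and the others make up the later windows of Kdm1a, Kdm1b and Kdm4b. Starts tagged in this way need not be places where transcription begins. Without them 9 of 13 windows had a peak, and the 4 without one lay at Kdm3a, Kdm4d and the other starts of Kdm4c, the first and the third. The ratios of these 4 windows were 0.843, 0.687, 0.152 and 0.0854, in that order. Only Kdm4c then had windows of both kinds, so the order at Kdm1a, Kdm1b and Kdm4b rests on the tagged starts.

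**Figure D4:**
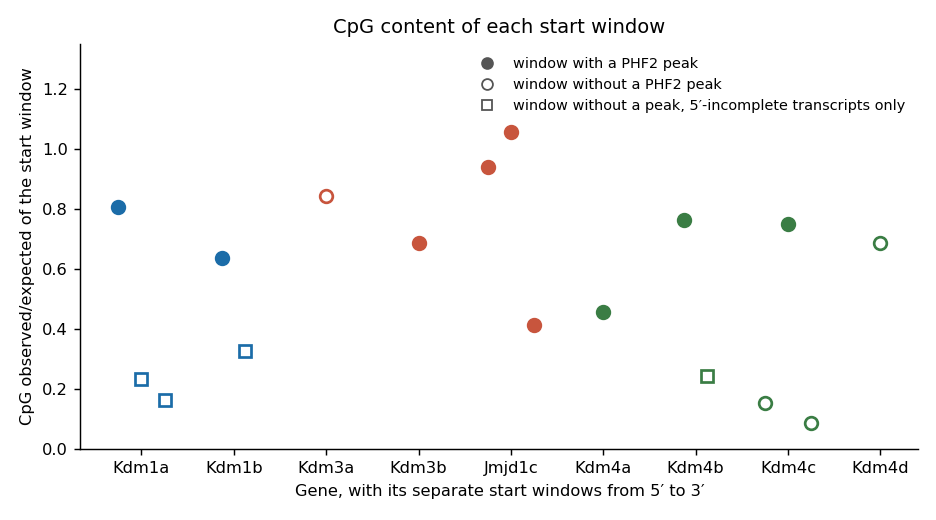
CpG observed/expected (y axis) of each separate window of 1 kb on either side of coding starts in the 9 genes (x axis, windows from 5′ to 3′ within a gene). Filled circles have a PHF2 peak, open circles have none, and open squares have none and rest on transcripts incomplete at the 5′ end. Kdm3a (0.843) and Kdm4d (0.687) are the open circles above 0.5, and the third Jmjd1c window (0.414) and Kdm4a (0.455) are the lowest filled ones.

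A total of 4 short motifs were counted on both strands of the 250 bases before each first start. The GC box was searched as GGGCGG, and the box named after its letters as CCAAT. The core shared by hypoxia response elements was searched as ACGTG, which matches an E-box of the palindromic kind on both of its strands. The ETS core was searched as CCGGAA, and none of the motifs holds another. GGGCGG occurred in 40.2% and ACGTG in 17.5% of all 21670 promoters. Among the promoters of genes with a PHF2 peak the shares were 60.7% and 23.2%. Kdm4b had 3 matches to ACGTG, 4 to GGGCGG and 3 to CCAAT. Kdm1b had 6 to GGGCGG and 0 to ACGTG, and the first Jmjd1c start had 1 and 2. Kdm3a had 1 match each to GGGCGG and CCAAT and 0 to ACGTG in this window. Before the second Kdm4c start there were 4 matches to ACGTG, and before the first there was no match to any of the motifs. All 4 came from palindromic E-boxes (CACGTG) counted on both strands, so they are fewer separate sites. The 3 matches at Kdm4b also include such a box. The shares over all promoters rest on first starts, so they are no background for the second Kdm4c start. Kdm4d had 4 matches to CCGGAA, found in 14.1% of promoters, and was alone among the 9 genes in having any. The 250 bases counted for Kdm4d run past the stretch shown above, into the first exon of Cwc15. Only some of these 4 matches lie in the stretch shown. CCAAT occurred in 35.9% of promoters and in 2 copies at Kdm4d.

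None of the 9 genes (0 of 9) had an H3K9me2 region at a coding promoter, where 2.3% of all protein-coding genes had one. With so low a background and 9 genes, a count of 0 shows little about them. The regions of that mark were short: the 36111 analysed measured 73 to 367 bp, and 55.6% were at the minimum. The score column of that list holds 0 throughout, so only position and length describe a region. From the 5'-most start the nearest region lay between 4.91 kb (Kdm1a) and 76.6 kb (Jmjd1c) away. The median was 57.1 kb over the 9 genes, 37.2 kb over genes with a PHF2 peak and 37.65 kb over all genes.

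In gene bodies, 4 of 9 genes (44.4%) held an H3K9me2 region, against 24.3% of all protein-coding genes and 30.9% of those with a PHF2 peak. The 9 genes are long, with a median of 52.2 kb against 17.4 kb over all genes, so the counts were also taken per length. There were 7 regions in 681 kb of gene bodies, 1.03 per 100 kb, with an exact Poisson interval of 0.413 to 2.12 (95%, counting error only). All protein-coding genes together had 1.30 per 100 kb (1.28 to 1.33), which lies within that interval. The difference was not detectable with 7 regions.

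The regions fell in Kdm4c (3), Kdm1a (2), Jmjd1c (1) and Kdm4d (1), and 6 of the 7 lay in introns. Some are shown here because they differ in place and in repeat content, from the same GRCm38 sequence, on the strand of the gene and with CpG dinucleotides in capitals.
Kdm1a, coding exon (chr4:136561044-136561116, - strand): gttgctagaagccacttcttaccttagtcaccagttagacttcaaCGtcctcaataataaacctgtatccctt
Jmjd1c, intron (chr10:67173101-67173173, + strand): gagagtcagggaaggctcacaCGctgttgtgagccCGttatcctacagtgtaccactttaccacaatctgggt
Kdm4c, intron, repeat-rich (chr4:74287369-74287475, + strand): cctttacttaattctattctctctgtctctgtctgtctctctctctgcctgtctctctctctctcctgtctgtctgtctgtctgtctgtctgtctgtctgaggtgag
Kdm4c, intron (chr4:74376513-74376589, + strand): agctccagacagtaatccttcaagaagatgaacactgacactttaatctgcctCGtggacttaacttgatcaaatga
Kdm4d, intron (chr9:14477681-14477793, - strand): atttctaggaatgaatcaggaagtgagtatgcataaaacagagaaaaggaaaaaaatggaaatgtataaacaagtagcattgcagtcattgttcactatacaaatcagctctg
Of the 7 regions, 4 held no CpG, where 59.3% of all H3K9me2 regions held none. In 4 of 7 no base was marked as a repeat in the reference, against 49.1% of all regions, while 87.9% of the bases of the first Kdm4c region were.

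Kdm1a had 2 regions. One lay wholly within exon 10 of 20 of a coding transcript (136561044 to 136561116, 73 bp), 7491 bp from the nearest coding start and 385 bp from the start of a noncoding transcript of the gene. It was the only one of the 7 in an exon. The other (136597727 to 136597810, 84 bp) lay in intron 1, 4.01 kb from the Kdm1a PHF2 peak, which made it the region closest to a PHF2 peak among these genes. The rate in Kdm1a was 3.83 regions per 100 kb (exact Poisson interval 0.464 to 13.8), an interval that also holds the rate of all genes.

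Kdm4c, the longest of the 9 genes at 163 kb, had regions in intron 4, intron 18 and intron 20 of 21, at 44.9, 134 and 157 kb from its first start. This gave 1.84 per 100 kb (0.379 to 5.37). Jmjd1c, of nearly the same length (160.2 kb), had 1 region, in intron 2, which gave 0.624 per 100 kb (0.0158 to 3.48). That region lay between its second and its last PHF2 peak, 12.1 kb from the last. Kdm4d had 1 region of 113 bp in its single intron (2.64 per 100 kb, 0.0667 to 14.7). Kdm1b, Kdm3a, Kdm3b, Kdm4a and Kdm4b had no region in the body, and their upper limits lay between 4.80 and 8.83 per 100 kb. The intervals of all 9 genes overlapped, so no order among them was resolved.

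**Figure D5:**
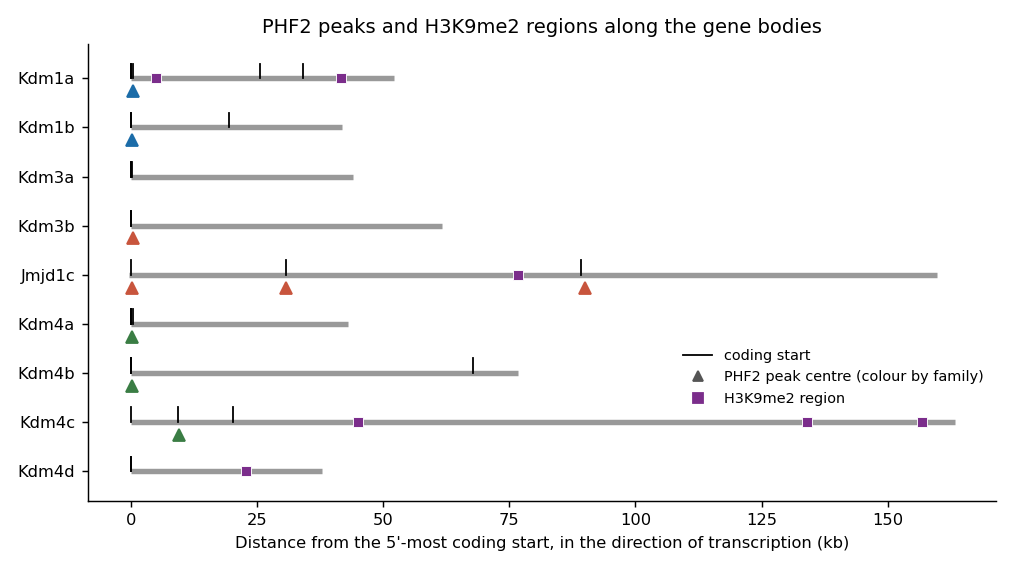
The 9 gene bodies (grey lines) drawn to scale in kb from the 5'-most coding start, in the direction of transcription, with coding starts (black ticks), PHF2 peak centres (triangles, blue for KDM1, red for KDM3, green for KDM4) and H3K9me2 regions (purple squares, not to scale). PHF2 peaks stand at starts and the 7 H3K9me2 regions stand apart from them, in Kdm1a, Jmjd1c, Kdm4c and Kdm4d.

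No PHF2 peak of these genes overlapped an H3K9me2 region. Such overlaps were not counted over all PHF2 peaks. Of the 6306 protein-coding genes with a PHF2 peak, only 101 had an H3K9me2 region at a coding promoter. The lack of overlap at these genes therefore shows little about them. The distance from a peak to the nearest region ran from 4.01 kb (Kdm1a) to 75.3 kb (first Jmjd1c peak), with a median of 56.6 kb, where all promoter peaks had a median of 36.4 kb. Of the 7 genes with a PHF2 peak, 3 (Kdm1a, Jmjd1c and Kdm4c) had a region in the body, as did 1 of the 2 genes without a peak.

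The other genes of H3K9 methylation were counted in the same way, from lists chosen with earlier results of these data known. In the KDM7 family, to which PHF2 itself belongs, 3 of 3 genes had a PHF2 peak, Kdm7a (score 351), Phf2 (189) and Phf8 (165). Of 13 H3K9 methyltransferase genes and partners, 6 had a peak (46.2%), led by Ehmt1 (372), Zfp644 (349.5) and Trim28 (239). Atf7ip, a partner of the methyltransferase SETDB1, had no peak and was the only gene of these lists with an H3K9me2 region at a promoter. Of the 3 HP1 genes, whose products bind methylated H3K9, Cbx3 (1435) and Cbx5 (558) had a peak and Cbx1 did not. The Cbx3 score was above that of every demethylase gene here, and the Cbx5 score above all of theirs but that of the first Jmjd1c peak.

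Among 12 partners of the KDM1 enzymes, 7 had a PHF2 peak (58.3%). Among them were Gse1 (score 522) and Glyr1 (364), the latter of which encodes the partner of KDM1B. Rcor1, the CoREST gene, is named outside the rule and had a score of 299. Among 19 genes of other JmjC proteins, 12 had a peak (63.2%), led by Jarid2 (670.3), Kdm5a (566) and Riox1 (542). The share of the KDM1, KDM3 and KDM4 genes with a peak, 77.8%, lay among those of the related lists, which ran from 46.2% to 100%, and with 3 to 19 genes a list no order among them was tested. As to the cells, 7 of 8 neural stem cell markers had a PHF2 peak, 1 of 4 neuronal, 0 of 3 astrocyte and 0 of 3 oligodendrocyte markers. Over all protein-coding genes the share was 29.1%. The median promoter CpG observed/expected of these lists fell in the same order, 0.699, 0.391, 0.196 and 0.185. Marker type and CpG content therefore cannot be told apart in these counts. Lists of peaks also do not measure transcripts and cannot check the cell type.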

How the data were processed

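PHF2 and H3K9me2 were each mapped in 1 ChIP sample with 1 input. Per the file headers, MACS run in Galaxy made the PHF2 list, in which the authors deposited 1 score per peak. Not given in the sources used here were its version, control and settings, and the caller of the H3K9me2 list. The deposited H3K9me2 list holds a score of 0 throughout. Bowtie2 and mm10 appear in the submitters' processing notes. Lists of peaks give no read totals, so depth is unknown.

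Peaks were joined to coding starts of GENCODE M21 on GRCm38, the mm10 assembly, with 1 kb windows and an overlap of 1 bp. All 5992 peaks and 36111 of 36171 regions lay on the chromosomes analysed, and 0 ran past a chromosome end. CpG content and sequences came from the RefSeq copy of GRCm38. Scripts used Python 3.11.15 and numpy 2.4.6, and Poisson intervals came from scipy 1.17.1. The overlap code was tested on simulated data. No comparison between groups was possible with 1 sample each, and no p-value was computed. Alternatives were other windows, starts, peaks and body definitions. The genes and lists were chosen with earlier results of these data known. The rule for named genes took all 9 members, genes sharing their peaks, the 3 highest-scoring genes of each related list and those with an H3K9me2 region at a promoter, and the 3 genes most like the highest-scoring and lowest-scoring member. A KDM1 partner gene that the rule takes is not reported here.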

Additional observations from a re-analysis of the deposited data

How the results depend on the processing

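The 7 genes with a PHF2 peak were the same with windows of 500 bp, 2 kb and 5 kb, with peak centres in place of overlap, with the starts of all transcripts and with the starts of complete transcripts. The last 2 settings were chosen after seeing the data. The window and centre settings could not change the set of genes, so they are no check of it. Each peak covered a coding start and was centred within 816 bp of one. The peaks nearest to Kdm3a and Kdm4d lay 74551 and 112910 bp from their 5'-most starts. The share of all genes with a peak is not given for these windows. With the 5'-most start alone Kdm4c was lost, leaving 6 genes, and the median best score went from 198 to 180. Among the higher-scoring 50% of peaks 3 of the 7 genes remained (Jmjd1c, Kdm4a and Kdm4c), and among the higher-scoring 10% there were 0. Of all genes with a peak, 50.9% and 9.77% remained, since these settings use fewer peaks by construction. The number of genes with an H3K9me2 region at a promoter went from 0 to 1 (Kdm1a) with windows of 5 kb, and to 1 (Kdm1a) with the starts of all transcripts. With regions of the minimum length left out, 4 of the 7 regions in gene bodies remained. The other 36 of 42 recomputed values were equal to the first one or, for counts, within 1.5 times of it. No paired analysis was possible because each group holds 1 sample. Depth is unknown, so a missing peak or region cannot be told from one below the threshold of the caller.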

Other observations

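More than 1 promoter peak also occurred in other genes of the related lists. Kdm2b, the gene of an H3K36 demethylase that recruits a Polycomb complex to CpG islands, had 3 PHF2 peaks in 2 of its 4 separate start windows, with a best score of 256, where the 3 peaks of Jmjd1c lay in 3 windows. Kdm2a, its close relative, had 2 peaks in 2 windows (best score 261). Jarid2, a Polycomb partner (670.3), and the KDM1 partners Gse1 (522) and Phf21a (146) had 2 peaks each within 1 window. These genes are named after their values were seen.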
